A study of Mus musculus with 16 samples.

Results

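Acta2, Tagln, Pdgfrb, Lum, Dcn, Dpt, Cygb, Des and Reln are genes by which hepatic stellate cells and liver fibroblasts are recognised. They were chosen by name, with earlier results of these data known. All 9 were found among the 16793 genes measured in livers of mice with induced primary liver cancer. Polyadenylated RNA of liver tissue taken at the end of the experiment was sequenced in 16 libraries, 4 for each of 4 groups. OVX livers came from ovariectomized females, which lack the main source of circulating estrogen, and Sham livers from females that had sham surgery. LCAT livers overexpressed lecithin-cholesterol acyltransferase, a secreted enzyme that esterifies cholesterol on lipoproteins, and Vec livers, their controls, received an empty vector. Every mouse was labelled wild type. The agent that induced the cancer, the strain, the age, the sex of the mice in the vector experiment, the promoter of the vector and the share of tumour in each tissue piece are not stated in the labels.

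Hepatic stellate cells are pericytes that lie between hepatocytes and the sinusoidal endothelium and, in the resting state, store vitamin A. After injury they can become myofibroblasts, which contract, divide in response to platelet-derived growth factor and deposit fibrillar collagen under the influence of transforming growth factor beta. Portal fibroblasts, mesothelial cells and vascular smooth muscle share several of their markers, so none of the genes described here belongs to 1 cell type alone. In bulk tissue, fewer cells of a type and less RNA per cell cannot be told apart.

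The genes fall into 4 roles. Acta2 encodes smooth muscle alpha-actin and Tagln encodes transgelin, an actin-binding protein; both are contractile proteins of smooth muscle and myofibroblasts. Pdgfrb encodes the beta receptor for platelet-derived growth factor. Lum, Dcn and Dpt encode lumican, decorin and dermatopontin, matrix proteins that bind collagen, and decorin also binds transforming growth factor beta. Cygb encodes cytoglobin, a globin, Des encodes the intermediate filament protein desmin, and Reln encodes reelin, a large secreted glycoprotein; these 3 are used as markers of resident stellate cells. Acta2, Tagln, Pdgfrb and Lum were set against Cygb, Des and Reln as activated against resident markers, with the proviso that Pdgfrb and Des are present in both states. Dcn and Dpt were placed on neither side.

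Sequence before the RefSeq start site is shown for the contractile marker Acta2, which had the largest change after ovariectomy among the 9 genes, because its promoter is a classical target of serum response factor through a motif called the CArG box. RefSeq promoter entries of build GRCm38.p6 were used for 4 of the 9 genes: Acta2, Dpt, Des and Reln. That the other genes are not shown does not mean that RefSeq lacks entries for them. In the 250 bases before the Acta2 start, no exact CArG box was found on either strand, the only motif searched. There were 2 sequences with 1 letter changed in its centre of A and T. The CC and GG at the ends of the motif had to match, so changes there were not looked for. They are printed 5′ to 3′ on the minus strand of chromosome 19, with the motif in capitals. The first lies at chr19:34255438-34255467 and its motif starts 84 bases before the RefSeq start, and the second lies at chr19:34255388-34255417 and its motif starts 34 bases before it. GENCODE M21 places the outermost start of Acta2 further upstream, so both stretches lie inside the gene as it is annotated there, and only 33 bases of the RefSeq window lie outside its exons.
Acta2 distal: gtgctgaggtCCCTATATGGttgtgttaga
Acta2 proximal: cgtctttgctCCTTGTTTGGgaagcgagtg
Among 32851 RefSeq promoters of the same length, 1.47% held an exact CArG box. An exact one or one with 1 letter changed in its centre was held by 8.59%, and 2 or more such sequences by 0.67%.

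No such sequence was found in the promoter windows of Dpt, Des and Reln, which says only that these letters are not in those windows. For these genes 100 bases of the window are shown, because their base composition differs. No more than 100 were printed, the last ones outside the gene's annotated exons. Their number thus does not show how much of the window lies outside exons. The Dpt stretch is chr1:164796544-164796643 on the plus strand, the Des stretch is chr1:75360192-75360291 on the plus strand, and the Reln stretch is chr5:22344706-22344805 on the minus strand.
Dpt: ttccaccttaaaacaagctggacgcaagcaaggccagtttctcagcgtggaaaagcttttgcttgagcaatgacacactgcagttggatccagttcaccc
Des: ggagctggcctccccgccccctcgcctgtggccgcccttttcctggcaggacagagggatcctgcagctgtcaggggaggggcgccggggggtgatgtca
Reln: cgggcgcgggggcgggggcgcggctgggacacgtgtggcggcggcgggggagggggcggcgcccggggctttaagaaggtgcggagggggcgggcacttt
Over the 250 bases before the start, GC content was 48.8% for Dpt, 67.2% for Des, 80.0% for Reln and 53.6% for Acta2. The median over all promoters was 52.4%. The Reln window held 37 CpG dinucleotides, the Des window 10, the Acta2 window 4 and the Dpt window 3. A relation of base composition to the direction of change was not tested.

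The values are read counts that the authors divided by 1 size factor per library, here called normalized reads, and the libraries held 12562943 to 27110501 reads. Lcat itself was higher in LCAT livers, where its normalized reads were 5014, 5074, 5106 and 4531, than in Vec livers, where they were 3348, 2926, 4521 and 2980.1 (log2 fold change 0.54, SE 0.14, limma adjusted p = 0.0168). The lowest LCAT library was just above the highest Vec library. Lcat was lower in OVX than in Sham livers (-0.74, SE 0.067, adjusted p = 0.000167). In every group, the median positions of libraries numbered 2 and 3 lay between libraries 1 and 4 for genes that differed at least 2-fold between those ends. These genes were picked by their ends, so a median between the ends does not by itself show an order. In Sham, over 1296 such genes, library 2 had a median position 0.656 of the way towards library 1 (quartiles 0.566 to 0.747). Library 3 had 0.456 (0.365 to 0.546). The same positions were 0.766 (0.674 to 0.84) and 0.619 (0.511 to 0.687) over 656 genes in OVX. They were 0.426 (0.317 to 0.577) and 0.385 (0.268 to 0.593) over 2390 genes in LCAT. Vec had 188 such genes, with medians of 0.635 and 0.795. Its quartiles were wider, at 0.0773 to 0.964 for library 2 and 0.125 to 1.01 for library 3. Nothing in the labels says that libraries came from separate animals, so each p measures only how far these libraries vary, which may be technical. A fit on libraries 1 and 4 alone has 2 against 2 and called 0 of the 9 genes. Its log2 fold changes are given with those of the full fit.

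All 9 genes passed the test between OVX and Sham livers (limma, adjusted p below 0.05): in OVX livers 7 rose and 2 fell. The contractile genes and dermatopontin showed the largest rises, Acta2 at a log2 fold change of 1.86 and Dpt at 1.74, while Dcn and Reln fell. By the same test, 39.6% of the 13059 genes tested were called, 19.0% higher and 20.6% lower. The 4 OVX and 4 Sham libraries did not overlap for any of the 9, against 39.0% of all genes tested. The median log2 fold change was 0.89 over the 9 genes and 0.00 over all genes. The 9 genes and the lists below were chosen with earlier results known, so their shares against all genes are descriptions.

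Acta2, the standard marker of myofibroblasts, had 510.4, 550.3, 624 and 796 normalized reads in OVX livers, against 191, 188, 154 and 144 in Sham livers. The lowest OVX library held well over any Sham library. Acta2 rose by a log2 fold change of 1.86 (SE 0.16, 95% interval 1.50 to 2.22, adjusted p = 0.000128), and it was 1.94 on libraries 1 and 4 alone. Tagln had 553, 569.9, 578 and 759 normalized reads in OVX livers and 238, 268, 228 and 275 in Sham livers. Here OVX library 4 stood above the other 3, which were close together, as it did for Acta2. Tagln rose by 1.27 on the log2 scale (SE 0.12, adjusted p = 0.000195), and by 1.34 on libraries 1 and 4.

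Pdgfrb had 378, 388, 433 and 443 normalized reads in OVX livers, against 232, 205, 195 and 254 in Sham livers. Both groups were tight and clearly separate. The receptor rose by a log2 fold change of 0.89 (SE 0.11, adjusted p = 0.000546), and by 0.75 on libraries 1 and 4.

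The 3 matrix genes did not move together. Lum, which encodes a collagen-binding proteoglycan, had 376, 377, 356 and 375 normalized reads in OVX livers and 171, 169, 156 and 144 in Sham livers, a log2 fold change of 1.21 (SE 0.085, adjusted p = 5.7e-05). Dpt was the least abundant of the 3, with 79.5, 89.1, 75.6 and 106 normalized reads in OVX livers, against 22.1, 36.1, 25.5 and 20.1 in Sham livers. Dermatopontin transcripts rose by 1.74 on the log2 scale (SE 0.22, adjusted p = 0.000632). Dcn went the other way, with 1692, 1705, 1557 and 1393 normalized reads in OVX livers, against 2633, 2177, 2223 and 1944 in Sham livers. Every OVX library was under every Sham library, but the gap was smaller than the spread among the Sham libraries. Dcn fell by 0.50 on the log2 scale (SE 0.11, adjusted p = 0.00803). On libraries 1 and 4 the log2 fold changes were 1.25 for Lum, 2.07 for Dpt and -0.56 for Dcn. The call of Dcn was lost when all 16 libraries shared 1 estimate of spread (adjusted p = 0.0687), and the log2 fold change was -0.25 (adjusted p = 0.0345) when library totals were set equal.

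Among the resident stellate markers, Des had 134, 115, 106 and 108 normalized reads in OVX livers and 67.4, 77.2, 67.2 and 81.2 in Sham livers. Desmin transcripts were higher in each OVX library, with library 1 the highest. Des rose by 0.65 on the log2 scale (SE 0.13, adjusted p = 0.00567). Cygb had 318, 301, 298 and 257 normalized reads in OVX livers, against 256, 246, 241 and 197 in Sham livers, so that the lowest OVX library was level with the highest Sham library. Cygb rose by 0.32 on the log2 scale (SE 0.11, adjusted p = 0.0487); the call was lost without the filter on low genes (adjusted p = 0.0574) or without any 1 of OVX 1, 2 or 3 or Sham 2, 3 or 4 (adjusted p 0.0638 to 0.12), and the log2 fold change was 0.56 with equal library totals. Reln had 1028, 1054, 1106 and 1308 normalized reads in OVX livers, against 2027, 1920.4, 1907 and 1854 in Sham livers. Reelin transcripts were far lower in each OVX library. Reln had a log2 fold change of -0.78 (SE 0.086, adjusted p = 0.000373), and -0.74 on libraries 1 and 4 alone, where Des had 0.69 and Cygb 0.35.

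**Figure D1:**
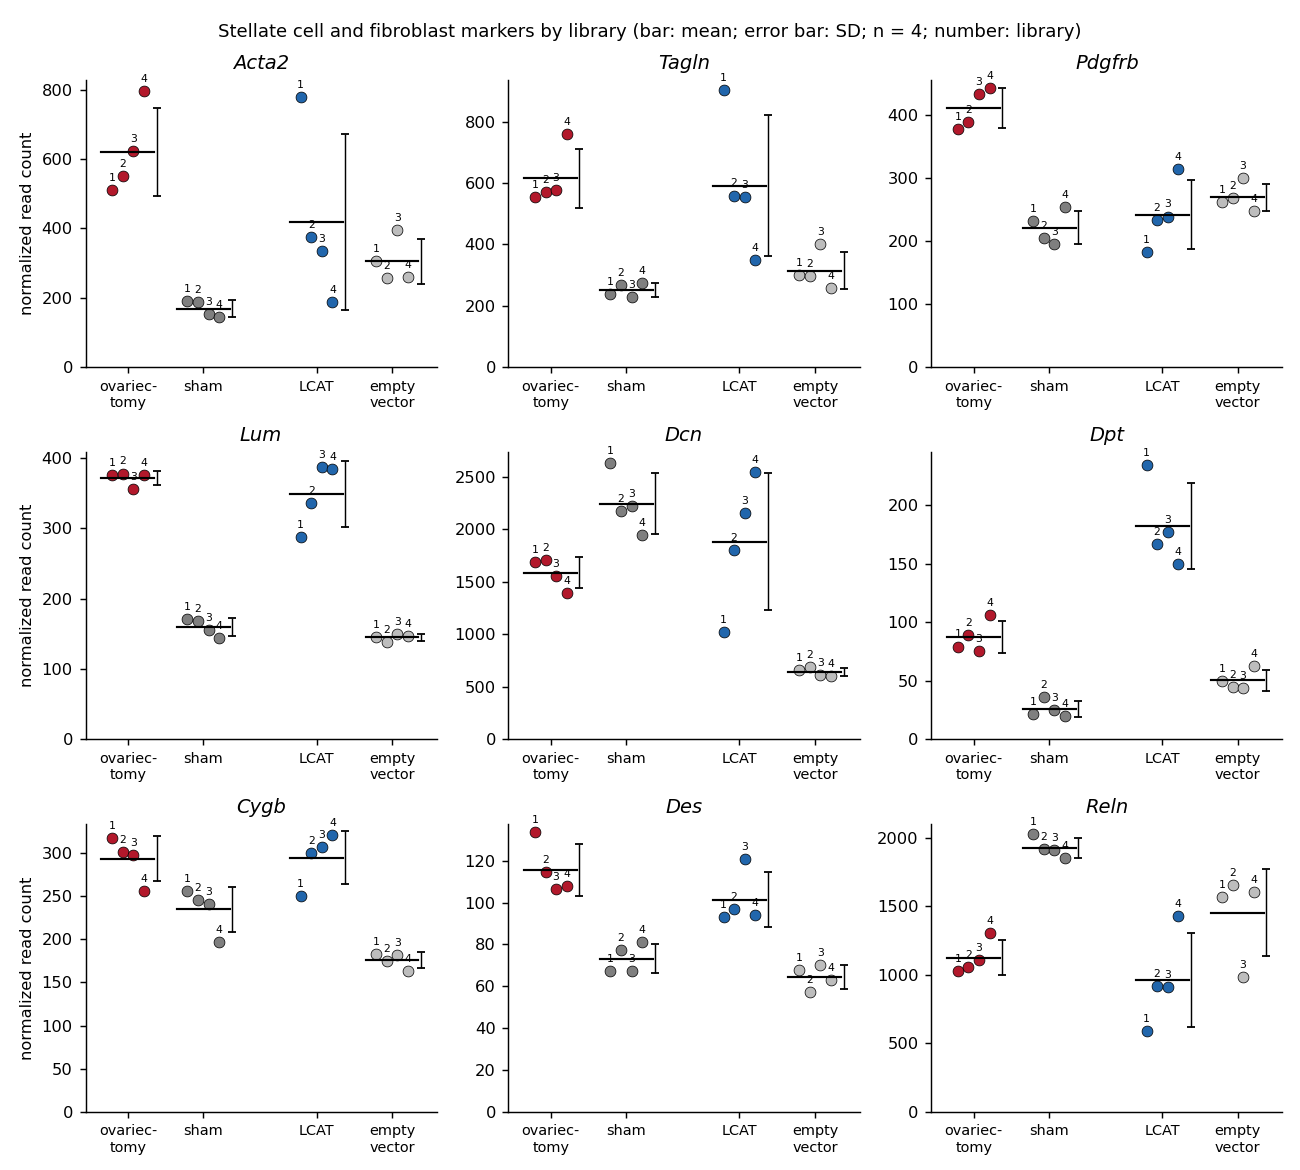
Normalized read counts (vertical axis of each panel, starting at 0) of the 9 genes in each of the 16 libraries, with the group mean as a bar and the SD as an error bar (n = 4). Ovariectomy and sham libraries do not overlap in any panel, while LCAT and empty vector libraries overlap for Acta2, Tagln, Pdgfrb and Reln.

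The LCAT livers showed another combination. The 3 matrix genes Lum, Dcn and Dpt and the resident markers Cygb and Des were higher in LCAT than in Vec livers, without overlap between libraries. Tagln was also called higher, Acta2 and Pdgfrb were not called, and Reln was lower on average without passing the test. In all, 6 of the 9 genes were called, all higher; over the 13095 genes tested, 40.7% were called, 20.2% higher and 20.5% lower. The libraries of both groups did not overlap for 5 of the 9 genes, against 40.5% of all genes tested. The median log2 fold change was 0.74 over the 9 genes and 0.00 over all genes.

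Acta2 had 778, 375, 335 and 187 normalized reads in LCAT livers, against 307, 257, 395 and 261 in Vec livers. The LCAT libraries spanned both ends, with the highest and the lowest of the 8 values. Acta2 had a log2 fold change of 0.29 (95% interval -0.58 to 1.16, adjusted p = 0.560); without LCAT library 1 it was -0.07, and on libraries 1 and 4 it was 0.43. Tagln had 902, 559, 555 and 349 normalized reads in LCAT livers, against 300.1, 296, 403 and 259 in Vec livers. LCAT library 4 was below the highest Vec library and the other 3 were above all 4. For Tagln it was 0.85 (SE 0.27, adjusted p = 0.0353); the call was lost with equal library totals (0.66, adjusted p = 0.0566) and without any 1 of LCAT 2 or 3 or Vec 1, 2 or 4 (adjusted p 0.0743 to 0.0927). On libraries 1 and 4 it was 1.01.

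Pdgfrb had 182, 233, 239 and 314 normalized reads in LCAT livers, against 261, 268, 299 and 247 in Vec livers. The receptor's libraries overlapped, and its log2 fold change was -0.18 (95% interval -0.54 to 0.19, adjusted p = 0.403), or -0.09 on libraries 1 and 4. Across the 4 LCAT libraries the values of Pdgfrb ran opposite to those of Acta2 and Tagln: library 1 was the lowest for the receptor and the highest for both contractile genes.

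For the matrix genes, Lum had 288, 336, 387 and 383 normalized reads in LCAT livers, against 146, 138, 149 and 147 in Vec livers. The Vec libraries were close together and far below the lowest LCAT library. Lum rose by 1.25 on the log2 scale (SE 0.12, adjusted p = 0.000111). Dpt had 235, 167, 177 and 149.9 normalized reads in LCAT livers, against 50.01, 45.1, 43.9 and 62.9 in Vec livers, the largest rise of the 9 genes in this comparison at 1.83 (SE 0.18, adjusted p = 0.000157). Dcn had 1020.5, 1806, 2153 and 2548 normalized reads in LCAT livers, against 665, 690.3, 613 and 605 in Vec livers. LCAT library 1 was the lowest and library 4 the highest, and all were above Vec. Dcn rose by 1.47 on the log2 scale (SE 0.25, adjusted p = 0.00258), and 1.35 on libraries 1 and 4 alone, where Lum had 1.18 and Dpt 1.72.

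Cygb had 250.5, 300.5, 307 and 321 normalized reads in LCAT livers, against 183, 174, 182 and 163 in Vec livers, a log2 fold change of 0.74 (SE 0.11, adjusted p = 0.00107). Des had 93.3, 96.8, 121 and 94.3 normalized reads in LCAT livers and 67.6, 57.3, 70.2 and 62.9 in Vec livers, a log2 fold change of 0.64 (SE 0.14, adjusted p = 0.00694). Both resident markers were thus higher in each LCAT library. Reln had 593, 919, 910.0 and 1428 normalized reads in LCAT livers, against 1568, 1657, 986 and 1606 in Vec livers. Vec library 3 fell among the LCAT values and LCAT library 4 among the Vec values. Reln had a log2 fold change of -0.63 (95% interval -1.25 to -0.01, adjusted p = 0.0922), and Reln was called lower without LCAT 4 (-0.85, adjusted p = 0.0164), without Vec 3 (-0.81, adjusted p = 0.0494) and with all 16 libraries in 1 fit (adjusted p = 0.0235). On libraries 1 and 4 the log2 fold changes were 0.71 for Cygb, 0.52 for Des and -0.79 for Reln.

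**Figure D2:**
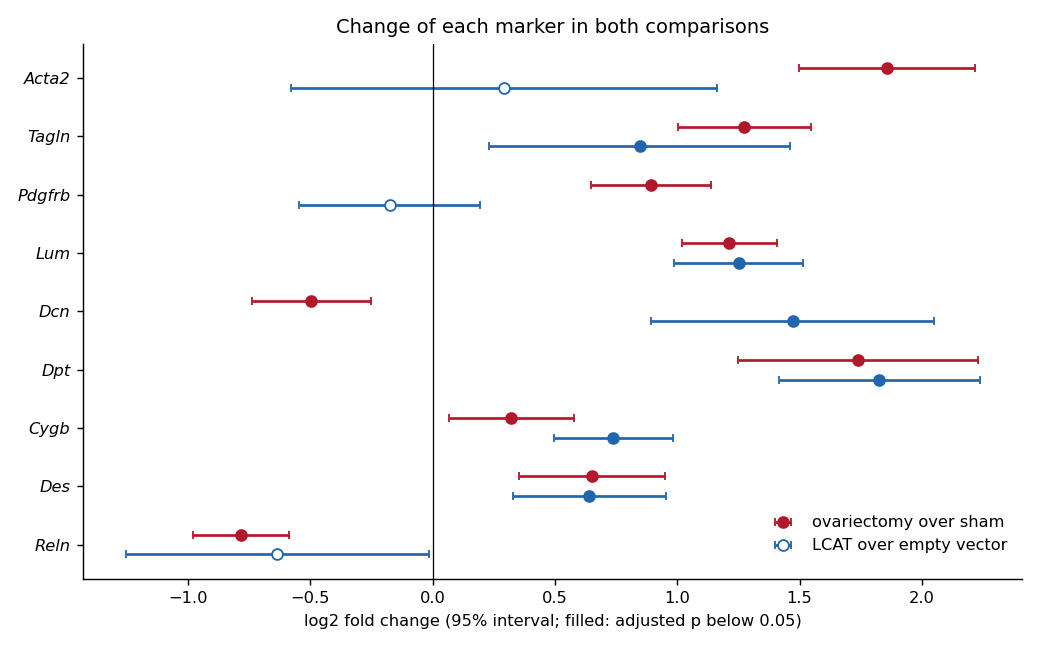
Log2 fold change (horizontal axis) of each gene (vertical axis) in ovariectomy over sham and in LCAT over empty vector livers, with 95% intervals; filled points had an adjusted p below 0.05. Lum, Dpt and Des lie at nearly the same place in both comparisons, and Dcn lies on opposite sides of 0, at -0.50 for ovariectomy and 1.47 for LCAT.

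The effect of ovariectomy minus the effect of LCAT was tested over all 16 libraries, the 2 comparisons having no library in common. Of the 9 genes, 4 had effects that differed at an adjusted p below 0.05: Acta2 and Pdgfrb with a higher effect of ovariectomy, Dcn and Cygb with a lower one. Over 13166 genes tested, 44.8% were called, 22.9% higher and 21.9% lower, so 4 of 9 is near the share among all genes. The difference was 1.57 for Acta2 (SE 0.43, adjusted p = 0.00855) and 1.07 for Pdgfrb (SE 0.20, adjusted p = 0.000526) on the log2 scale. It was -1.97 for Dcn (SE 0.29, adjusted p = 6.92e-05), the only one of the 9 genes called in opposite directions by the 2 comparisons. For Cygb it was -0.42 (adjusted p = 0.0398), but 0.010 with equal library totals, and the call was lost without any 1 of OVX 2, 3 or 4, Sham 1, 2 or 3, LCAT 2, 3 or 4 or Vec 1, 2 or 4.

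With the authors' size factors, Lum, Dpt and Des had closely similar fold changes in the 2 comparisons. On the log2 scale the difference was -0.04 for Lum (95% interval -0.34 to 0.27, adjusted p = 0.847), -0.09 for Dpt (-0.69 to 0.52, adjusted p = 0.821) and 0.01 for Des (-0.38 to 0.41, adjusted p = 0.966). With equal library totals the difference of Lum was 0.39 (adjusted p = 0.0490). Over all the settings tried, the difference ran from -0.20 to 0.35 for Dpt and from -0.059 to 0.43 for Des. The likeness of these fold changes thus depends on the setting. Tagln had a difference of 0.43 (95% interval -0.23 to 1.09, adjusted p = 0.274), called without LCAT 1 (0.66, adjusted p = 0.0390) and with equal library totals (0.85, adjusted p = 0.0242). Reln had a difference of -0.15 (95% interval -0.79 to 0.49, adjusted p = 0.713). None of these p-values shows that the effects are equal.

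**Figure D3:**
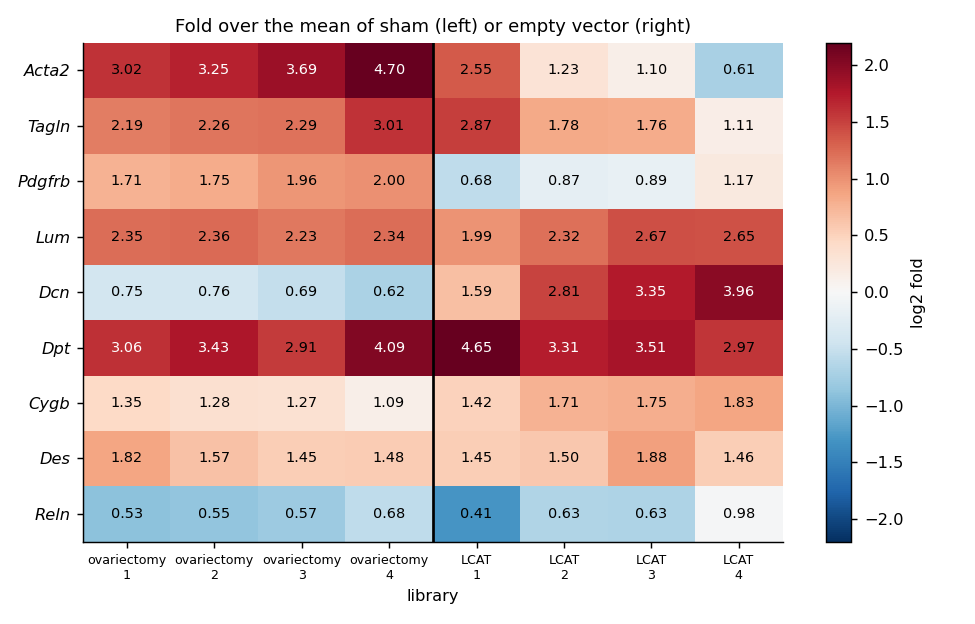
Normalized reads of each gene (rows) in each ovariectomy library, divided by the mean of the sham libraries (left), and in each LCAT library, divided by the mean of the empty vector libraries (right); colour gives the log2 of the fold printed in each cell. The ovariectomy libraries lie on the same side of the sham mean in every row, and range from 3.02 to 4.70 for Acta2. The LCAT libraries range from 0.61 to 2.55 for Acta2 and from 1.59 to 3.96 for Dcn, but only from 1.45 to 1.88 for Des.

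Activated markers stood higher relative to resident markers in OVX livers. The mean log2 value of Acta2, Tagln, Pdgfrb and Lum minus that of Cygb, Des and Reln was 0.34, 0.48, 0.57 and 0.76 in OVX livers, against -0.67, -0.70, -0.80 and -0.67 in Sham livers. Every OVX library was above every Sham library, and the means were 0.54 ± 0.17 and -0.71 ± 0.061 (SD, n = 4 each). The score takes no account of transcript length, so its sign has no meaning of its own. Only differences between libraries can be read from the score. In LCAT livers it was 0.86, 0.26, 0.16 and -0.24, against -0.15, -0.15, 0.31 and -0.20 in Vec livers. These groups overlapped, with means of 0.26 ± 0.46 and -0.05 ± 0.24 (SD, n = 4 each). The score is a description of genes chosen with results known and has no test. Of the matrix genes it holds Lum alone. Dcn, which was lower in OVX livers, and Dpt, which was higher, are left out.

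The ratio of Acta2 to Reln normalized reads, which takes no account of transcript length, ran from 0.496 to 0.608 in OVX livers and from 0.0778 to 0.0979 in Sham livers. In LCAT livers it ran from 0.131 to 1.31, and in Vec livers from 0.155 to 0.400. The LCAT range thus enclosed the Vec range. The resident markers did not share a direction in OVX livers, where Des and Cygb were higher and Reln lower. Without Des, Pdgfrb and Lum, the score of Acta2 and Tagln minus Cygb and Reln differed by 1.80 between OVX and Sham livers, against 1.25 for the 7 genes.

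**Figure D4:**
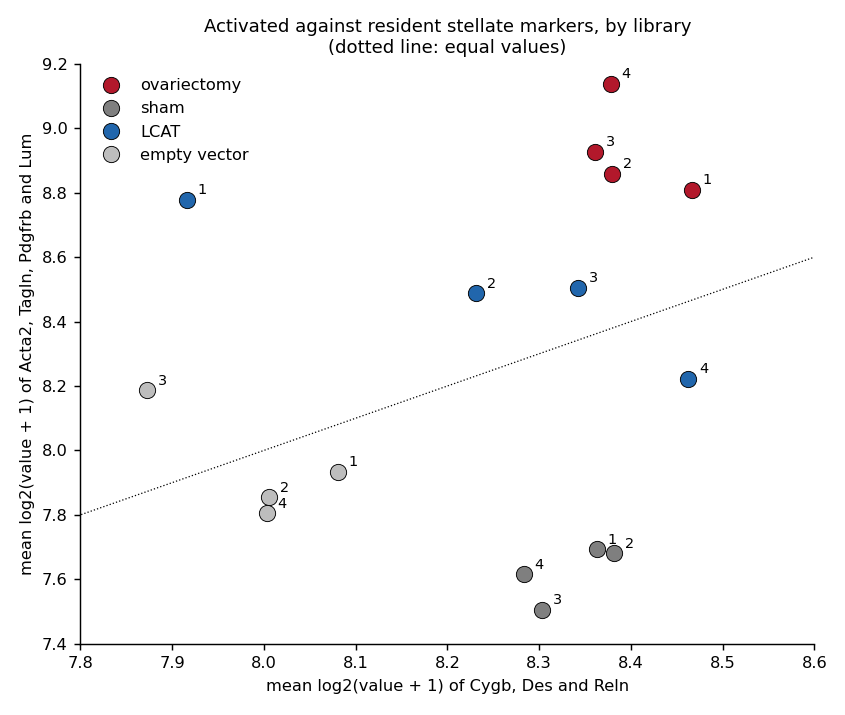
Mean log2(value + 1) of Acta2, Tagln, Pdgfrb and Lum (vertical axis) against that of Cygb, Des and Reln (horizontal axis) in each of the 16 libraries; the dotted line marks equal values. Ovariectomy libraries lie above the line and sham libraries below it, whereas LCAT and empty vector libraries lie on both sides. The values take no account of transcript length, so the side of the line has no meaning of its own.

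Levels were compared between genes as reads per kilobase of exon. In OVX livers the order was Tagln at 309, Acta2 at 282, Dcn at 272, Lum at 152, Cygb at 126, Pdgfrb at 74.96, Dpt at 50.8, Reln at 47.4 and Des at 30.8. In Sham livers Dcn came first at 384, ahead of Tagln at 127 and Cygb at 101, with Reln at 81.2, Acta2 at 77.1 and Lum at 65.3. Decorin was thus the most abundant per length in Sham livers and the contractile pair in OVX livers, where these 3 genes overlapped among libraries. In LCAT livers the means were 322 for Dcn, 298 for Tagln and 191 for Acta2, but the libraries overlapped, from 175 to 436 for Dcn, 176 to 454 for Tagln and 85.1 to 354 for Acta2. In Vec livers Tagln averaged 158, Acta2 139 and Dcn 110.2, with Acta2 and Dcn overlapping and every Tagln library above Dcn. Dpt went up the order in LCAT livers, with a level of 106 reads per kilobase, against 29.3 in Vec livers. Des was the lowest of the 9 in OVX, LCAT and Vec livers, and Dpt in Sham livers.

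Positions are those of GENCODE M21 in the build mm10. Acta2 lies on the minus strand of chromosome 19, from 34241090 to 34255590, Tagln on the minus strand of chromosome 9, from 45929619 to 45936058, and Pdgfrb on the plus strand of chromosome 18, from 61045150 to 61085061. Cygb is on the minus strand of chromosome 11, from 116645595 to 116654313, and Reln on the minus strand of chromosome 5, from 21884454 to 22344702. Dpt, from 164796644 to 164824266, and Des, from 75360329 to 75368579, are both on the plus strand of chromosome 1, far apart. Dcn, at 97479609 to 97518143, and Lum, at 97565128 to 97572703, are neighbours on the plus strand of chromosome 10, 47 kb apart. They moved in opposite directions in OVX livers and in the same direction in LCAT livers. The authors' handling of strand is not given, and 2 of the genes share exon bases with a gene on the other strand: Tagln shares 108 bases, 5.43% of its exons, with Pcsk7, and Cygb shares 201 bases, 8.62%, with Prcd. Pcsk7 was not called in OVX livers (-0.07, adjusted p = 0.681) or in LCAT livers (-0.69, adjusted p = 0.154). Prcd averaged 1.67 normalized reads in OVX, 0 in Sham, 2.99 in LCAT and 0.44 in Vec livers. The group means of Cygb ran from 176 in Vec to 295 in LCAT livers. What Pcsk7 and Prcd add to the reads of Tagln and Cygb was not tested.

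For each of the 9, the genes of most similar profile were found among 10802 genes, by the root mean square difference of log2 profiles over the 16 libraries, each centred on its mean. Acta2 was closest to Cdk1 (0.214), a cell cycle kinase, then Sdf2l1 and Cks1b, and Tagln to Tyms (0.185), Coro1a and Tmed3. Pdgfrb was closest to Hspa13 (0.183), Dcn to Fcgr2b (0.190), Aqp1 and Ntn1, and Dpt to H2-Eb1 (0.361), a class II antigen-presentation gene. Lum was closest to Timp2 (0.267), H2-DMb1 and Bgn, and Des to Bgn (0.142), the gene of the collagen-binding proteoglycan biglycan, which was the only neighbour named for 2 of the genes. Cygb was closest to Tmem98 (0.135) and Reln to Lrp5 (0.161). Among the 9 themselves, the nearest pairs were Cygb and Des (0.204), Lum and Des (0.326) and Acta2 and Tagln (0.337). These are measures over 16 libraries with 4 group means and carry no test.

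Other markers of stellate activation were mostly higher in OVX livers. Of 22 listed genes 21 were tested, and 15 rose and 0 fell, against 19.0% and 20.6% of all genes, with a median log2 fold change of 1.24. Fibrillar collagen genes were among them, Col5a2 at 1.23 (adjusted p = 7.01e-05), Col1a2 at 1.48 and Col3a1 at 1.76, as was the matrix protease gene Mmp2 at 1.65. Pdpn, counted among the 15, reached the filter's mean of 10 in OVX libraries only, so the filter favoured its call. In LCAT livers 3 of 21 rose and 12 fell, against 20.2% and 20.5% of all genes, with a median of -0.64. Loxl2, which encodes a collagen cross-linking oxidase, had -1.93 (adjusted p = 1.74e-05), the matricellular gene Postn -1.04, the fibrillin gene Fbn1 -0.85 and Col5a2 -0.64. The 3 that rose, named after their values were seen, were Bgn at 0.67, Mmp2 at 0.93 and Loxl1 at 0.41. For 19 of 21 genes the effect of ovariectomy was higher than that of LCAT by the test of the difference, and for 0 it was lower, against 22.9% and 21.9% of all genes. In LCAT livers, Loxl2, Postn, Fbn1 and Col5a2 thus fell while Lum and Dcn rose.

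Contractile and smooth muscle genes had a higher effect of ovariectomy than of LCAT for 10 of 14 genes tested and a lower one for 1, against 22.9% and 21.9% of all genes. In OVX livers 9 of 14 tested rose and 0 fell, against 19.0% and 20.6% of all genes, among them Tpm2, a tropomyosin gene, at 1.44, Myh11, the smooth muscle myosin heavy chain gene, at 1.81, and Lmod1 at 1.93. Actg2, enteric smooth muscle actin, had 54.3, 34.4, 45.7 and 39.3 normalized reads in OVX livers and 7.38, 4.20, 0 and 0 in Sham livers, and so its fitted fold rests on the pseudocount. Actg2 and Synpo2, both counted among the 9, reached the filter's mean of 10 in OVX libraries only, so the filter favoured their calls. In LCAT livers 2 rose and 4 fell, against 20.2% and 20.5% of all genes. Tpm2 rose by 0.99, while Smtn had -0.76, Mcam -0.71 and Cald1 -0.56.

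Other markers of resting stellate cells had a lower effect of ovariectomy than of LCAT for 11 of 17 genes tested and a higher one for 1, against 21.9% and 22.9% of all genes. In OVX livers 3 of 17 tested rose and 5 fell, close to the 19.0% and 20.6% of all genes, with a median of 0.03; with equal library totals 5 rose and 3 fell. Vipr1, a vasoactive intestinal peptide receptor gene, had -1.23, Ecm1 -0.74 and Fcna -0.96, while the transcription factor gene Tcf21 had 1.52. In LCAT livers 11 of 16 rose and 1 fell, against 20.2% and 20.5% of all genes, with a median of 1.81. Lhx2, counted among the 11, reached a mean of 10 in LCAT libraries only. Angptl6 had 1.92 (adjusted p = 0.000755), Tcf21 1.78, the parathyroid hormone receptor gene Pth1r 1.66 and Gata4 0.75. Lrat, whose enzyme makes the stored retinyl esters, was singled out after its values were seen: it had 28.0, 92.4, 103 and 133 normalized reads in LCAT livers and 29.8, 25.6, 6.58 and 23.6 in Vec livers. LCAT library 1 was within the Vec range and the other 3 were above it, with a log2 fold change of 1.99 (adjusted p = 0.0265). In OVX and Sham livers Lrat overlapped widely (0.07, adjusted p = 0.897).

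Portal fibroblast markers were higher in OVX livers for 12 of 14 genes tested and lower for 0, against 19.0% and 20.6% of all genes, with Thy1 at 1.92, Fbln1 at 2.83, Mfap4 at 2.47 and the elastin gene Eln at 2.81. Fbln1 and Mfap4, both counted among the 12, reached the filter's mean of 10 in OVX libraries only, so the filter favoured their calls. In LCAT livers 7 rose and 2 fell, against 20.2% and 20.5% of all genes, with the matrix Gla protein gene Mgp at 1.45, Ogn at 1.95 and Gas6 at 0.54 among the risers and Cd34 at -0.73.

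Of the ligands that act on these cells, Pdgfb, which encodes the chain that activates the beta receptor, had 169.6, 176, 193 and 192 normalized reads in OVX livers, against 60.1, 84.8, 92.8 and 74.8 in Sham livers. It had 171, 143, 120.0 and 129.8 in LCAT livers, against 196, 219.5, 276 and 225 in Vec livers. The groups did not overlap in either comparison, and the direction was opposite. The log2 fold changes were 1.23 (adjusted p = 0.000551) for OVX and -0.70 (adjusted p = 0.00723) for LCAT, and the difference was 1.93 (adjusted p = 5.37e-06). Pdgfra, the alpha receptor gene, had log2 fold changes of 0.42 (adjusted p = 0.0312) and 0.66 (adjusted p = 0.238). Over the 5 genes of the PDGF list, Pdgfrb apart, 2 rose and 1 fell in OVX livers, and 1 rose and 2 fell in LCAT livers. Over all genes 39.6% were called in OVX and 40.7% in LCAT livers, and 5 genes are too few to read a share from. Pdgfa had -0.37 in OVX and -0.50 in LCAT livers, and Pdgfd rose by 1.01 in LCAT livers.

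Transforming growth factor beta genes were mostly not called in OVX livers. Tgfb1 had log2 fold changes of 0.18 in OVX (adjusted p = 0.263) and -0.01 in LCAT livers (adjusted p = 0.962), neither called. Tgfb3 rose by 0.998 on the log2 scale in OVX livers (adjusted p = 0.000642), with 143, 139.8, 144 and 139.7 normalized reads, against 73.8, 57.9, 74.0 and 77.6 in Sham livers; it had 0.73 in LCAT livers (adjusted p = 0.0734). Tgfb2 had 0.20 in OVX (adjusted p = 0.492) and -0.68 in LCAT livers (adjusted p = 0.0368). Of 16 pathway genes tested, 3 rose and 1 fell in OVX livers, no more than the 19.0% and 20.6% of all genes, and Ltbp2, which encodes a latent TGF beta binding protein, had 2.19, Smad3 0.75 and the type I receptor gene Tgfbr1 -0.59. In LCAT livers 5 rose and 5 fell, against 20.2% and 20.5% of all genes, with Tgfbi at 1.03 (adjusted p = 0.0046), Ltbp1 at 1.65 and Smad3 at -0.53. With LCAT 3 left out the LCAT count was 4 in all, and it was 5 or 6 without LCAT 2 or Vec 1, 2 or 4.

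**Figure D5:**
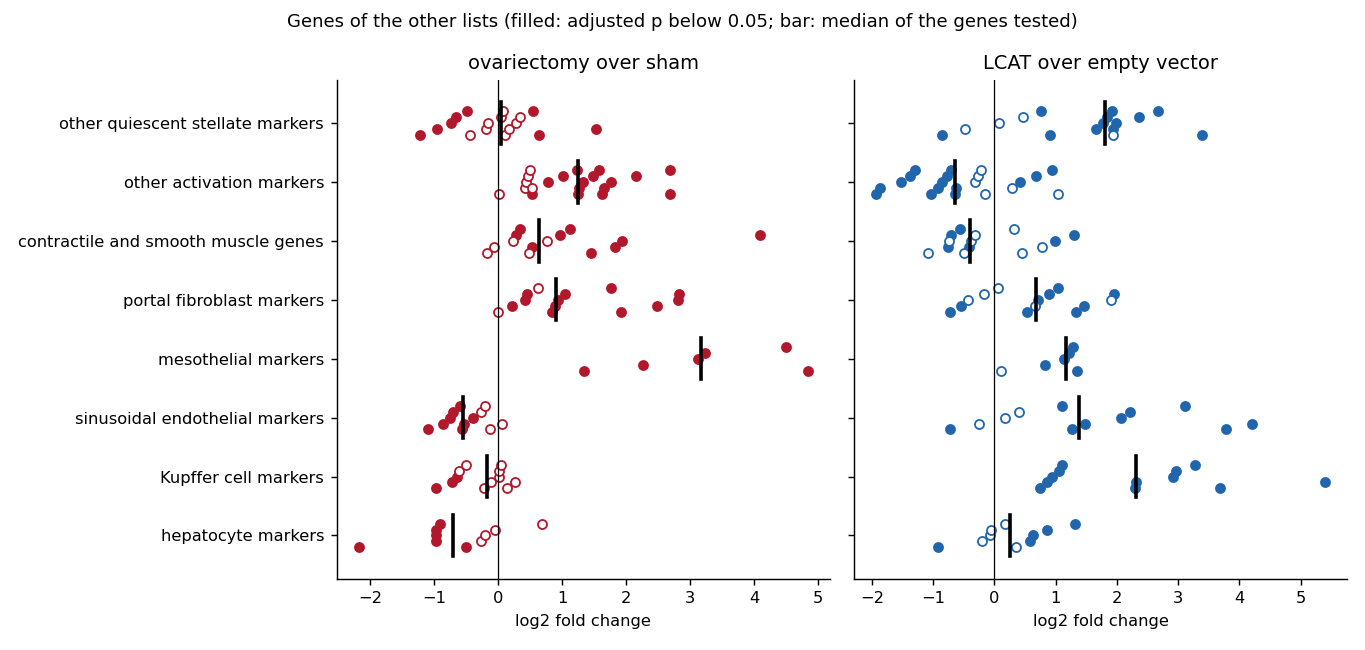
Log2 fold change (horizontal axis) of each tested gene of the other lists (rows) in ovariectomy over sham livers and in LCAT over empty vector livers; filled points had an adjusted p below 0.05 and each bar is the list's median. Activation markers have a median of 1.24 after ovariectomy and -0.64 with LCAT, and Kupffer cell markers one of -0.17 and 2.31.

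Markers of other cell types moved as well, and their part in the results above was not tested. Mesothelial markers, the cells that cover the liver surface, summed to 364 to 446 normalized reads in OVX livers, against 31.9 to 65.5 in Sham livers, and Upk3b had a log2 fold change of 3.12 (adjusted p = 3.5e-05). Of the 6 genes tested, 4 (Lrrn4, Msln, Upk1b and Wt1) reached the filter's mean of 10 in OVX libraries only. The filter thus favoured genes that differ, and their calls are not counted. Msln had 134, 147, 129 and 157 normalized reads in OVX livers, against 0, 5.04, 21.3 and 3.65 in Sham livers, and Upk1b had 29.0, 45.9, 48.4 and 48.2, against 2.11, 3.36, 0 and 0. Wt1 was at 0 in Sham libraries 1 and 2. In LCAT livers they summed to 345 to 456, against 150.3 to 234 in Vec livers, and 5 of 6 rose, of which Wt1 reached a mean of 10 in LCAT libraries only, against 20.2% of all genes, with Upk3b at 1.21, Gpm6a at 1.28, Msln at 0.82 and Upk1b at 1.34. All 7 listed mesothelial genes were in the table, and none of the OVX, LCAT or Vec libraries had Msln, Upk1b or Wt1 at 0.

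Sinusoidal endothelial markers were lower in OVX livers for 8 of 12 genes and higher for 0, against 20.6% and 19.0% of all genes, with Dnase1l3 at -0.86, Stab2 at -0.75, Lyve1 at -1.10 and Oit3 at -0.60, and summed to 5378 to 6178, against 7903 to 8653 in Sham livers. In LCAT livers 8 rose and 1 fell, against 20.2% and 20.5% of all genes, with Gpr182 at 2.22, Oit3 at 3.11 and Clec4g at 4.21 among the risers and Pecam1 at -0.73, and the sums were 4104 to 7745, against 2865 to 3724 in Vec livers. Kupffer cell markers, those of the liver's macrophages, rose for 12 of 12 genes in LCAT livers, against 20.2% of all genes, 2 of them (Marco and Timd4) reaching a mean of 10 in LCAT libraries only, with Csf1r at 1.10, Cd5l at 2.96, C1qc at 0.94 and Clec4f at 3.69. Their sums were 7050.1 to 8188 in LCAT livers and 2725 to 3118 in Vec livers. In OVX livers 3 of 12 fell, close to the 20.6% of all genes, Marco at -0.97, Timd4 at -0.72 and Vsig4 at -0.64, with sums of 6616 to 9564, against 8889 to 9310 in Sham livers; with equal library totals 3 rose and 1 fell.

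Bile duct markers rose for 3 of 6 genes in OVX livers, against 19.0% of all genes, Spp1 at 1.96, Krt7 at 1.90 and Krt19 at 0.86. In LCAT livers 4 of 7 rose, 1 of them (Cftr) reaching a mean of 10 in LCAT libraries only, and 1 fell, against 20.2% and 20.5% of all genes, with Krt7 at 2.64, Krt19 at 3.65, Epcam at 2.88 and Spp1 at -1.50. Spp1 alone made up 94.4% to 99.3% of the summed reads of this list in every library. Without it the sums were 696 to 809.8 in OVX livers and 462 to 671 in Sham livers, and 946 to 1609 in LCAT livers and 534 to 610.0 in Vec livers. Hepatocyte markers fell for 6 of 10 genes in OVX livers and rose for 0, against 20.6% and 19.0% of all genes, with Cps1 at -0.97, Apoh at -0.92, Ttr at -0.98 and Tat at -2.18; with equal library totals 2 rose and 5 fell. In LCAT livers 4 of 10 rose and 1 fell, against 20.2% and 20.5% of all genes, with Serpina1e at 1.31, Tat at 0.86, Apoh at 0.57 and Fgb at -0.92. Skeletal muscle markers, 3 of 8 being in the table, summed to at most 88.7 in any library; Acta1 had -0.77 in OVX (adjusted p = 0.512) and -0.83 in LCAT livers (adjusted p = 0.0113).

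The scaling of the libraries bears on each direction given here. Setting library totals equal moved the median of all genes by 0.24 in OVX over Sham and by -0.18 in LCAT over Vec on the log2 scale. The whole table then gave 4454 genes higher and 1208 lower in OVX livers, in place of 2484 and 2686, and 1794 higher and 3969 lower in LCAT livers, in place of 2651 and 2681. Under that scaling the 9 genes kept their sign in both comparisons, with 9 called in OVX livers, 7 higher and 2 lower, and 5 in LCAT livers, all higher.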

How the data were processed

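Liver RNA (200 ng per library, polyadenylated, BGI protocol per the labels' protocols) was read into 16 libraries. The submitters' processing notes name FastQC, HISAT2, SAMtools, StringTie and mm10; no source used here gives the counting tool, annotation or strand setting. The deposited signal values are read counts divided by 1 size factor per library; all values were whole reads within 0.01 read once multiplied back, so depth was 12562943 to 27110501 reads per library. The method behind the size factors is not stated. With them the median log2 fold change over all genes was 0.00 in both comparisons, so each direction is relative to the median gene.

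Members were matched by symbol (9 of 9); positions and exon lengths came from GENCODE M21, promoters from RefSeq GRCm38.p6. After a pseudocount of 1 and log2, limma 3.58.1 (R 4.3.3; trend, robust) was fitted over genes with a mean of at least 10, separately for OVX against Sham and LCAT against Vec, and for the difference over 16 libraries. P-values were adjusted by Benjamini-Hochberg over all genes tested, with a threshold of 0.05; the fits were tested on simulated data. A fold on this scale understates changes of low genes. The whole reads were also tested with edgeR 4.0.16, which called 5125 genes in OVX over Sham and 5382 in LCAT over Vec, and with DESeq2 1.42.0. Also varied were the pseudocount (0.5 and 5), the filter (none, or a mean of 50 and over), the scaling (TMM, equal library totals), and the fit (all libraries in 1 fit, a replicate block, libraries 1 and 4 alone, each library left out). Another 24 gene names had been turned into dates.

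Members and lists were chosen with earlier results of these data known. The text names all 9 members, the 4 genes with the smallest p past the threshold in each other list (or the gene with the smallest p where none passed), Tgfb1, Tgfb2, Tgfb3, Pdgfb and Pdgfra, and up to 3 nearest profiles per member with a mean of at least 50. One gene that these rules select is not reported here. Lists are described by count and median, and some lists of other cell types also by summed normalized reads, without a test of the list. Where calls are counted, genes that reached the filter through 1 group alone are named. They stay in the counts, apart from the mesothelial genes in OVX livers, although the filter favours genes that are high in 1 group.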

Additional observations from a re-analysis of the deposited data

Results flagged for a closer look

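The effects of ovariectomy and of LCAT differed by the test of the difference for 4 of the 9 genes, on the log2 scale: by 1.57 for Acta2 and 1.07 for Pdgfrb, which were higher in OVX livers and not called in LCAT livers, by -1.97 for Dcn, which was lower in OVX and higher in LCAT livers, and by -0.42 for Cygb, which was higher in both. The whole table gave 44.8% of genes, and 4 of 9 is close to that share.

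In 4 of the 36 combinations of gene and group examined, 1 library lay far from the other 3, with a gap to its nearest neighbour over 0.829 of the group's range. Tagln in OVX library 4 was high, with a gap of 0.881 of the range. Lum in OVX library 3 was low, with a gap of 0.871, in a group that spanned few reads. Des in LCAT library 3 was high, with a gap of 0.873, and Reln in Vec library 3 was low, with a gap of 0.867. Chance gives such a gap in about 1 of 20 groups.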

How the results depend on the processing

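Of the 9 genes, 9 were called in OVX over Sham, 6 in LCAT over Vec and 4 in the difference by limma, edgeR and DESeq2 alike. Leaving out 1 library gave 8 to 9, 5 to 7 and 3 to 5. Libraries 1 and 4 alone gave 0, 0 and 0 genes of the 9, and 0, 3 and 97 over the whole table, a fit too small to say anything about stability. Same-numbered libraries did not deviate together (r from -0.0547 to 0.0503 in the surgery experiment and from -0.105 to 0.174 in the vector experiment), so the numbers are not taken as pairs; with the replicate block 9, 6 and 4 genes were called, and 4339, 4558 and 5594 over the whole table, in place of 5170, 5332 and 5897. The block changed no call among the 9; the resting stellate list in OVX livers had 5 called genes in place of 8 and the mesothelial list in LCAT livers 3 in place of 5. The score of Acta2 and Tagln minus Cygb and Reln moved to 1.80 in OVX over Sham.

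Some signs turned; the cause was not tested. Acta2 in LCAT livers ranged from -0.069 to 0.615 on leaving out 1 library. Differences turned with equal library totals for Lum (0.39), Dpt (0.33), Cygb (0.010) and Reln (0.28), with edgeR for Des (-0.00877), and on libraries 1 and 4 alone for Lum (0.0750), Dpt (0.35) and Reln (0.045). Leaving out 1 library, the differences ranged from -0.059 to 0.099 for Des, -0.196 to 0.077 for Dpt, -0.127 to 0.016 for Lum and -0.358 to 0.064 for Reln. The difference for Cygb lost its call in 12 of 16 such fits.

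Among the other lists in OVX livers, resting stellate markers called were 4 without OVX 2 and 5 without Sham 2, Kupffer markers 1 without any 1 of OVX 2 or 3 or Sham 1, 3 or 4, and bile duct markers 1 without OVX 2 or 3. With all 16 libraries in 1 fit, Kupffer markers had 0 calls, endothelial markers 3 and resting stellate markers 5. In LCAT livers, mesothelial markers called were 3 without LCAT 3, Vec 1 or Vec 2 and with all 16 libraries in 1 fit, and the PDGF list had 5 without LCAT 1. With a mean of at least 50, mesothelial markers had 2 calls in each comparison and bile duct markers 1 in OVX livers. DESeq2 gave no adjusted p for 16, 30 and 21 genes.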
